A study of Mus musculus with 4 samples.

Results

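AP-2 is the adaptor complex of clathrin-coated pits at the plasma membrane. It is built of 1 alpha subunit (the product of Ap2a1 or Ap2a2), the beta subunit Ap2b1, the medium subunit Ap2m1 and the small subunit Ap2s1, and it joins membrane lipids and the tails of cargo receptors to clathrin, whose heavy chain is encoded by Cltc. Receptors that blood-forming cells depend on, among them the transferrin receptor and Kit, enter cells through such pits. The 6 genes Ap2b1, Ap2a1, Ap2a2, Ap2m1, Ap2s1 and Cltc were followed here at every probe that carried their name on the array, which gave 16 probes of 41174 and 6 of 28095 gene names. The members were chosen by the measured Meis1-KO against Meis1-WT difference at 1 Ap2b1 probe, so the values of that probe are given as a description and were not tested as a finding. The question was whether the other Ap2b1 probe and the partner subunits differed in the same way.

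The data came from 4 one-colour microarrays with Cy3-labelled cDNA from LSK cells, the Lin- Sca-1+ c-Kit+ fraction of mouse bone marrow in which stem and early progenitor cells are found. The 2 Meis1-KO arrays held cells of Mx1-Cre+ Meis1 fl/fl animals and the 2 Meis1-WT arrays those of Meis1 fl/fl animals that lacked the Cre, all on a C57BL/6J background, so both genotypes carried the floxed alleles, in which exon 8 can be cut out. Cre under the Mx1 promoter is switched on by interferon and acts in many tissues besides blood. Mice of 4 to 8 weeks received poly(I:C), an inducer of interferon, at 1.5 µg/g in 4 injections. The sample labels give this treatment for both genotypes, whereas the array methods call the controls sham-treated, so whether poly(I:C) alone separated the groups cannot be told apart from genotype. Each array held a pool of 6 mice. Replicate 1 of both genotypes lay on 1 slide and replicate 2 on another, so each slide gave a Meis1-KO minus Meis1-WT difference of its own. Levels below are log2 signals minus the 75th percentile of their array (a level of 0 is the 75th percentile), and differences are Meis1-KO minus Meis1-WT on that log2 scale with their SE from limma (n = 2 pools per genotype). Because probes differ in how well they hybridise, levels of different probes do not rank the genes.

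The share of spots well above background ran from 49.2% to 57.4% over the 4 arrays, lowest on the Meis1-KO 2 array, whose 75th percentile signal was 90.3 against 147 to 154 on the others. Meis1 itself was lower in the knockout on both slides at both of its probes, by -0.77 and -1.23 at A_52_P670612 and by -0.92 and -2.47 at A_52_P26195, where Meis1-KO 2 was not well above background. Neither probe met the criteria given below (adjusted p = 0.983 at both, limma). Whether these probes lie in the deleted exon was not analysed here. The 5 LSK markers were all tested, and their summed level was 6.97 and 6.95 in Meis1-KO and 7.05 and 6.76 in Meis1-WT. Summed erythroid markers were at 6.63 and 7.94 in Meis1-KO and at 6.45 and 4.54 in Meis1-WT, so the lowest array was Meis1-WT 2. Of 5 erythroid markers tested, 3 had differences above 0 and 2 below it, and Rhag met the criteria given below as higher in Meis1-KO (1.299 and 2.149 on the slides). Of 7 granulocyte and monocyte markers tested, 2 had differences above 0 and 5 below it, and Elane met the criteria as lower (-1.69 and -1.46). Summed granulocyte and monocyte markers ranged from 6.84 to 7.35 in Meis1-KO and from 5.88 to 7.47 in Meis1-WT, and summed plasma cell markers from 2.87 to 4.96 and from 4.29 to 5.33. The lowest plasma cell sum was that of Meis1-KO 1. All 5 plasma cell markers tested had differences below 0 (median -1.38), as had all 3 B lineage and 2 T lineage markers tested. None of these met the criteria. B lineage markers summed to 3.105 and 3.554 in Meis1-KO and to 2.900 and 4.199 in Meis1-WT, and Pax5 and Igll1 were not well above background on any array. T lineage markers summed to 0.73 and 1.35 in Meis1-KO and to 1.29 and 1.46 in Meis1-WT, with Cd3e and Cd3g not well above background on any array, and megakaryocyte markers to 3.35 and 3.69 in Meis1-KO and to 3.42 and 5.19 in Meis1-WT. The part of such cells in the results below was not tested.

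The array reads Ap2b1 at 2 places. Both probes are shown because they gave different answers, with every TAA, TAG and TGA on the printed strand in capitals. The first lies at chr11:83157953-83158012 (mm9, as the array files give it) and was designed on AK030505, a full-length cDNA clone. The second lies at chr11:83216119-83216178, 58.2 kb further along in the same reading direction, and was designed on NM_001035854, the RefSeq transcript of the gene, and its first 40 bases are given.
A_52_P38057: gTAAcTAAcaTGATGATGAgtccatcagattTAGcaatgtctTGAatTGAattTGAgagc
A_51_P213641: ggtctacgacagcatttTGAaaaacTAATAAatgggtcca
The cDNA-based probe is 35.0% G and C and has a stop triplet in each of its 3 sense frames. The RefSeq-based probe is 43.3% G and C over its 60 bases, and 1 of its 3 sense frames is free of stop triplets. Each covers an unbroken 60-base stretch of the chromosome. Which exon or intron holds them was not analysed here, because no annotation of the mm9 build was used.

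At the cDNA-based probe A_52_P38057 the level was -1.31 and -0.96 on the Meis1-KO arrays and -3.32 and -2.77 on the Meis1-WT arrays. Both knockout arrays were above both controls, and the probe was well above background on all 4. The background-subtracted signals before scaling were 59.9 and 46.3 against 14.7 and 22.6. The difference was 1.91 ± 0.46 (SE), 3.75-fold, and it was much alike on the slides, 2.01 on slide 1 and 1.81 on slide 2. The probe met the study's criteria (unadjusted p under 0.01 and over 2-fold), with an adjusted p of 0.983 over all 22007 tested probes (limma). The members were chosen by this difference, so neither is a test of it.

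At the RefSeq-based probe A_51_P213641 the level was 0.79 and 1.00 on the Meis1-KO arrays and 0.68 and 1.23 on the Meis1-WT arrays. The genotypes overlapped, with both knockout values between the controls. The difference was -0.06 ± 0.45 with a 95% interval from -1.16 to 1.03 and an adjusted p of 0.992 (limma), and the slides pointed opposite ways, 0.10 and -0.23. Within each array, the log2 ratio of the cDNA-based over the RefSeq-based probe was -2.10 and -1.97 in Meis1-KO and -4.002 and -4.004 in Meis1-WT. This ratio restates the difference at A_52_P38057, and which of the probes followed the gene's messenger RNA was not tested.

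**Figure D1:**
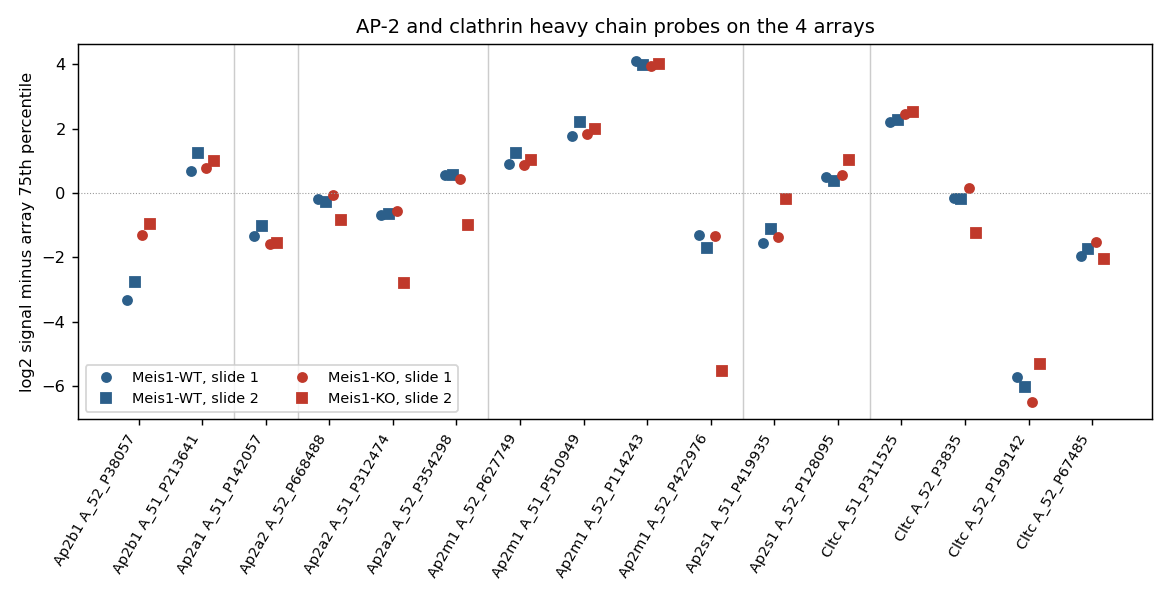
Level at each of the 16 probes of AP-2 and the clathrin heavy chain on the 4 arrays (y axis: log2 signal minus the 75th percentile of its array, with blue for Meis1-WT, red for Meis1-KO, circles for slide 1 and squares for slide 2). At Ap2b1 A_52_P38057 both red symbols lie above both blue ones, at A_51_P213641 they lie between them, and at several Ap2a2, Ap2m1 and Cltc probes the red square (Meis1-KO 2) stands below the other 3 arrays.

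The differences of the 2 Ap2b1 probes lay 1.97 apart, a gap that contains the value by which the members were chosen. Over the 3405 genes with exactly 2 tested probes the median gap was 0.30. Probes designed on AK cDNA clones made up 2637 of the 22007 tested probes and 16 of the 30 that met the criteria as higher in Meis1-KO. A_52_P38057 is among the 16. The share of these cDNA-based probes that met them as higher was 0.607%, against 12 of 16824 RefSeq-based probes, or 0.071%. Among probes lower in Meis1-KO, 14 of 132 were based on AK cDNA clones and 75 on RefSeq transcripts. In 453 genes, Ap2b1 among them, the 2 tested probes were 1 of each kind. There the AK-based difference minus the RefSeq-based one had a median of 0.07, and it was above 0 in 246 genes. These values come from the same 4 arrays from which the Ap2b1 probe was chosen, and no test was made of them.

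No partner subunit met the criteria. Of the 16 probes, 15 stood clear of background on both pools of 1 genotype or the other and were tested, and 1 of the 15 met the criteria as higher, which is the probe that led to the group, while 0 met them as lower. Over all tested probes 30 (0.136%) met them as higher and 132 (0.6%) as lower. With the slide as a replicate block those shares were 0.591% and 1.4%, and the same single member met them. Of the other 14 tested member probes, 4 had a difference above 0 and 10 below it, from -1.93 to 0.57 with a median of -0.11, where the median of everything tested was 0.08. Their lowest unadjusted p was 0.178 (limma, not past the threshold), and their adjusted p ranged from 0.983 to 0.992. The 2 genotypes overlapped at 10 of the 14, with Meis1-KO above Meis1-WT at 2 and below at 2, where over all tested probes 73.2% overlapped, 16.0% lay above and 10.9% below.

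**Figure D2:**
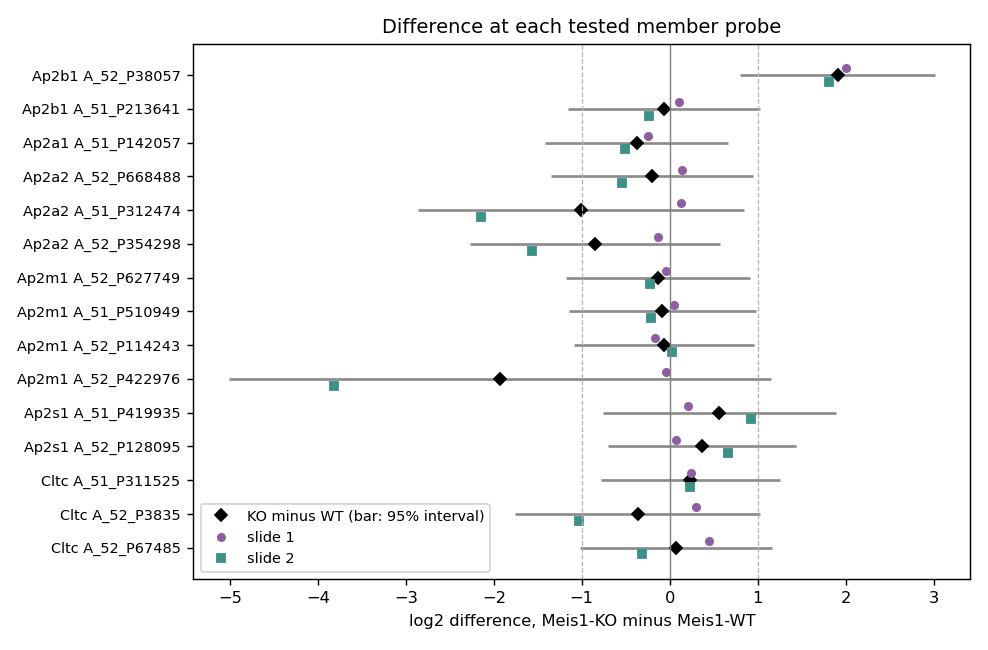
Difference between Meis1-KO and Meis1-WT at the 15 tested member probes (x axis: log2 scale, diamonds with 95% limma intervals, purple circles for slide 1, green squares for slide 2, dashed lines at a 2-fold change). Ap2b1 A_52_P38057, by whose difference the members were chosen, is at 1.91, and the 14 other probes run from -1.93 to 0.57 with intervals that hold 0.

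The alpha subunits, which bind the lipid PIP2 and dileucine cargo signals together with the small subunit, had differences below 0 at all 4 of their probes, and none met the criteria. Ap2a1 (A_51_P142057, chr7:52156427-52156486) was at -1.59 and -1.54 in Meis1-KO and at -1.35 and -1.04 in Meis1-WT. The knockout arrays were the lower ones, yet the difference of -0.38 ± 0.43 was within its error (95% interval -1.41 to 0.66, adjusted p = 0.983). Ap2a2 has 3 probes, all designed on NM_007459. In the order of the chromosome, their slide 1 differences were 0.14, 0.13 and -0.13, and their slide 2 differences -0.55, -2.15 and -1.56. The 3 probes thus stayed close to 0 on slide 1 and were all lower on slide 2. The low values were those of the Meis1-KO 2 array. At A_51_P312474 it read -2.81 and was not well above background, while Meis1-KO 1 read -0.56 and the controls -0.69 and -0.66. At A_52_P354298 the Meis1-KO 2 array read -1.01, against 0.43 in Meis1-KO 1 and 0.56 and 0.56 in the controls.

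Ap2m1, the medium subunit, which binds tyrosine-based cargo signals and is switched by phosphorylation, has 4 probes. The 3 that were designed on NM_009679 sat close together on chromosome 16 and had differences near 0. At A_52_P114243 (chr16:20543827-20543886) the level was 3.94 and 4.00 in Meis1-KO and 4.10 and 3.97 in Meis1-WT. The values overlapped, with a difference of -0.07 ± 0.42. At A_51_P510949 and A_52_P627749 the differences were -0.09 ± 0.44 and -0.13 ± 0.43, and all 3 intervals ended below 0.98, under a 2-fold rise. The fourth probe, A_52_P422976, was designed on the clone AK141862 and lies 738 bases beyond the end of A_52_P114243 (chr16:20544624-20544683). It was at -1.33, -1.29 and -1.71 on Meis1-KO 1 and the controls and at -5.53 on Meis1-KO 2, where it was not well above background. Its difference of -1.93 ± 1.27 came from that array, since on slide 1 it was -0.04, and with normexp background correction it was -0.15.

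Ap2s1, the small subunit, was read by 2 probes on NM_198613, and both had differences above 0. A_52_P128095 was at 0.57 and 1.03 in Meis1-KO and at 0.50 and 0.37 in Meis1-WT. The knockout arrays were the higher ones by a little, with a difference of 0.37 ± 0.44 (adjusted p = 0.983), of which slide 1 gave 0.07 and slide 2 0.66. A_51_P419935 was at -1.36 and -0.20 in Meis1-KO and at -1.56 and -1.13 in Meis1-WT, where the groups overlapped, with a difference of 0.57 ± 0.55 (adjusted p = 0.983). Its 95% interval, -0.76 to 1.89, does not leave out a 2-fold rise. The 60 bases of A_52_P128095 are spread over 223 bases of chromosome 7 and those of A_51_P419935 over 3952. In all, 5 of the 16 member probes span over 100 bases.

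Cltc, the clathrin heavy chain that forms the legs of the triskelion, has 4 probes. At A_51_P311525 (NM_001003908) the level was 2.45 and 2.51 in Meis1-KO and 2.21 and 2.28 in Meis1-WT. The knockout arrays were the higher ones and the slides alike, 0.25 and 0.23, with a difference of 0.24 ± 0.42 and an adjusted p of 0.983. At A_52_P3835, on the same transcript, the slides were 0.30 and -1.03 apart, and Meis1-KO 2, at -1.23, again stood below the other arrays, at 0.15, -0.15 and -0.20. Of the 2 cDNA-based probes of Cltc, A_52_P67485 (AK049578) had a difference of 0.07 ± 0.45 with a 95% interval from -1.02 to 1.16, and A_52_P199142 (AK039453) was not well above background on any array and was not tested.

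Without the Meis1-KO 2 array, the differences of the Ap2a2 probe A_51_P312474, the Ap2m1 probe A_52_P422976 and the Cltc probe A_52_P3835 moved to 0.11, 0.17 and 0.32, so their negative values rested on it. The Ap2a2 probe A_52_P354298 moved from -0.85 to -0.13 without Meis1-KO 2 and to -1.57 without Meis1-KO 1. The Ap2a2 probe A_52_P668488 moved from -0.20 to 0.19 and the Ap2s1 probe A_51_P419935 from 0.57 to -0.0146, so the shared signs of the alpha subunit probes and of the Ap2s1 probes rested on that array too. With Meis1-KO 2 as the lone knockout array, 3 of the 15 member probes met the criteria as lower, but so did 1705 (7.75%) of all tested probes. Meis1-KO 2 was the lowest of the 4 arrays at 6 of the 14 member probes other than A_52_P38057 and at 32.3% of all tested probes. What set this array apart was not tested.

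The difference at A_52_P38057 did not meet the criteria under every alternative. With normexp background correction the difference was 0.77, past neither the fold nor the p criterion. It also missed the p criterion without scaling between arrays (1.53), in the methods' t-test, without Meis1-WT 1 (1.63) and without Meis1-WT 2 (2.18), where limma took the spread of a lone array from the others.

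Ap1b1 encodes the beta subunit of AP-1, the adaptor of the trans-Golgi network and endosomes, and is the closest relative of Ap2b1. Its probe A_51_P138348 was at 0.10 and 0.14 in Meis1-KO and at 0.49 and 0.02 in Meis1-WT. Both knockout values lay between the controls, with a difference of -0.13 ± 0.44 (adjusted p = 0.988).

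The other genes of clathrin-mediated endocytosis and of the AP-1, AP-3 and AP-4 adaptors were read at 1 probe a gene, the one with the highest mean level among those tested. Of 79 such genes 65 were tested, of which 28 had a difference above 0 and 37 below it, with a median of -0.04 against 0.13 over the 12231 genes read in the same way. None met the criteria as higher, while 1, Vldlr, met them as lower, against 11 higher and 78 lower among the 12231. No adjusted p among all tested probes was under 0.05 (limma, 618 probes had an unadjusted p under 0.05), while with the slide as a block 50 were, with 1335 under 0.05 before adjustment.

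Vldlr, the very low density lipoprotein receptor, is taken up through coated pits and also serves as a receptor for reelin. At A_51_P278334 it was at -1.82 and -5.18 in Meis1-KO and at 2.36 and 1.62 in Meis1-WT. Both knockout arrays were far below both controls, and Meis1-KO 2 was not well above background. The difference was -5.49 ± 1.06, with -4.18 on slide 1 and -6.80 on slide 2 and an adjusted p of 0.846. Its size was uncertain, at -2.59 with normexp background correction, -3.82 without Meis1-KO 2 and -7.17 without Meis1-KO 1. Its second probe, A_51_P500044, was at -2.91 and -5.49 in Meis1-KO and at 0.25 and -0.20 in Meis1-WT, with a difference of -4.23 ± 0.86, and here too Meis1-KO 2 was not well above background. That difference was -1.31 with normexp and -2.93 without Meis1-KO 2. Unlike at Ap2b1, both probes of the gene met the criteria in the same direction. With the slide as a block the adjusted p of the 2 probes was 0.0166 and 0.032 (limma), whereas neither probe met the criteria in the methods' t-test.

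Of the 9 cargo receptors tested, 3 had differences above 0 and 6 below it, with a median of -0.33. The transferrin receptor Tfrc, which brings iron into the cell, was at 1.76 and 1.34 in Meis1-KO and at 1.93 and 1.83 in Meis1-WT. Igf2r, which carries lysosomal enzymes, was at 1.51 and 0.65 against 1.82 and 1.88. In both genes the knockout values were below both controls, but the differences of -0.33 and -0.77 did not pass the test. Kit, the receptor for stem cell factor and part of the sort, had a difference of -0.21. The highest difference of the list was 0.70, at Egfr, where the genotypes overlapped.

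**Figure D3:**
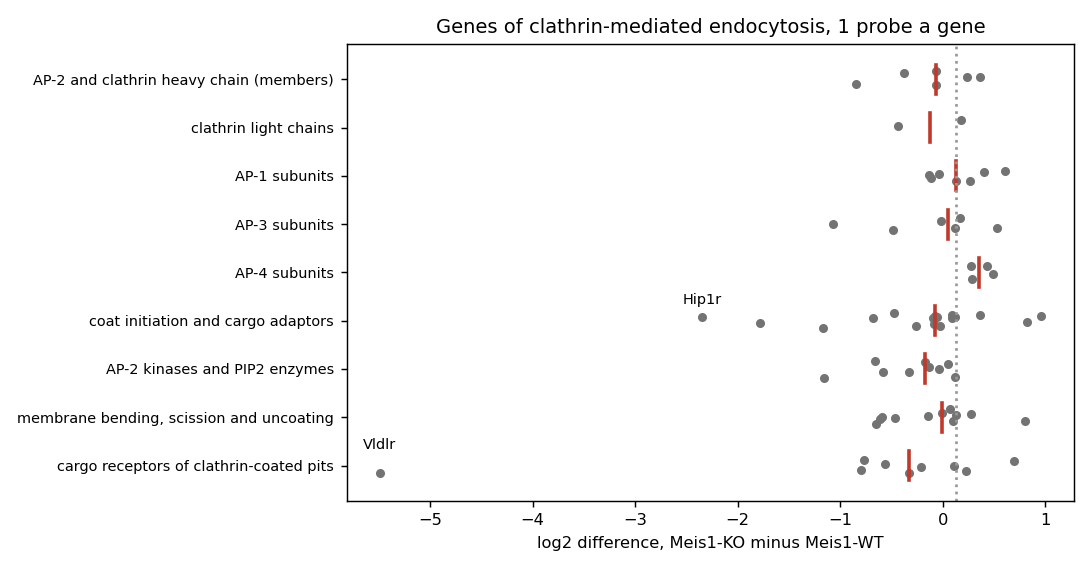
Difference between Meis1-KO and Meis1-WT (x axis, log2 scale) of each gene of the adaptor and endocytosis lists at 1 probe a gene, with a red bar at each list's median and a dotted line at the median of all genes read in the same way, 0.13. Vldlr is at -5.49 and Hip1r at -2.34, and the members at the top spread from -0.85 to 0.37.

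Of the 17 tested genes that start coats or bring in cargo, 6 had differences above 0 and 11 below it (median -0.07). The lowest was Hip1r, a link between clathrin and actin, at -3.57 and -5.27 in Meis1-KO and -1.84 and -2.31 in Meis1-WT. Both knockout arrays were below both controls and Meis1-KO 2 was not well above background. The difference of -2.34 ± 0.65 had an unadjusted p of 0.0109, just outside the criteria, which it met once the slide was blocked. With normexp background correction the difference was -0.13 and far from the criteria, and without Meis1-KO 2 it was -1.49. The highest was Arrb2, which takes activated receptors to the pit, with a difference of 0.96 ± 0.50 that ranged from 0.57 to 1.36 with an array left out. Among 9 genes for AP-2 kinases and for enzymes of the lipid PIP2, 2 had differences above 0 and 7 below it (median -0.17). They ran from -1.16 at Pip5k1b, which makes PIP2, to 0.13 at Bmp2k, a relative of the kinase that phosphorylates Ap2m1. The Pip5k1b signal of Meis1-KO 2 did not clear background, and leaving this array out gave -0.33. Among 11 genes of membrane bending, scission and uncoating the median was -0.01, from -0.65 at Snx9 to 0.81 at Pacsin3 (0.31 to 1.304 with an array left out), which both shape membrane. The clathrin light chains Clta and Cltb were at 0.18 and -0.43, and Cltb ranged from -0.83 to -0.0373 with an array left out.

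No subunit of the other adaptor complexes met the criteria. Of 7 tested AP-1 subunits, 4 had differences above 0 (median 0.13), from -0.13 at Ap1b1 to 0.61 at Ap1s3. Of 6 AP-3 subunits, 3 had differences above 0 (median 0.05), from -1.07 at Ap3d1, where Meis1-KO 2 was the lowest array, to 0.53 at Ap3s1. All 4 AP-4 subunits had differences above 0, from 0.27 at Ap4e1 to 0.49 at Ap4s1 with a median of 0.36. Without Meis1-KO 2, Ap4e1 and Ap4s1 moved to -0.0367 and -0.0218, so the shared sign of the AP-4 subunits rested on that array. Without scaling between arrays the sign of Ap4e1 turned, and the median of all tested probes itself moved from 0.08 to -0.30.

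No tested neighbour of Ap2b1 met the criteria. Within 250 kb of an Ap2b1 probe lay 24 other probes, of which 12 were tested (5 differences above 0, 7 below, median -0.24). Downstream, 1700020L24Rik, 38.4 kb from the RefSeq-based probe, had a difference of 0.25, and the 2 probes of Taf15, an RNA-binding protein, had -0.43 and -0.91. The Taf15 differences were 0.20 and -0.08 on slide 1 and -1.07 and -1.74 on slide 2. At both probes Meis1-KO 2 was the lowest array. On the upstream side, Slfn3, AI662270 and Gm11427 had -0.11, 0.15 and -0.43.

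Farther downstream in the window lay chemokine genes. Ccl5 had -0.38 and -0.51 at its 2 probes, Ccl9 0.59 and Ccl6 1.15. Slide 1 gave -0.02 and -0.16 at the Ccl5 probes and slide 2 gave -0.75 and -0.87, with Meis1-WT 2 the highest array. Ccl9 was at 0.14 on slide 1 and 1.05 on slide 2. Ccl6 was at -0.04 on slide 1 and 2.35 on slide 2, where Meis1-WT 2 was the lowest array at -3.22. Ccl3, a macrophage chemokine 245.2 kb away, was at -0.66 and -2.40 in Meis1-KO and at 0.95 and 0.09 in Meis1-WT. Both knockout arrays were below both controls, with a difference of -2.05 and an unadjusted p of 0.0246 (limma). With the slide as a block Ccl3 met the criteria, and it was the 1 neighbour that did.

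**Figure D4:**
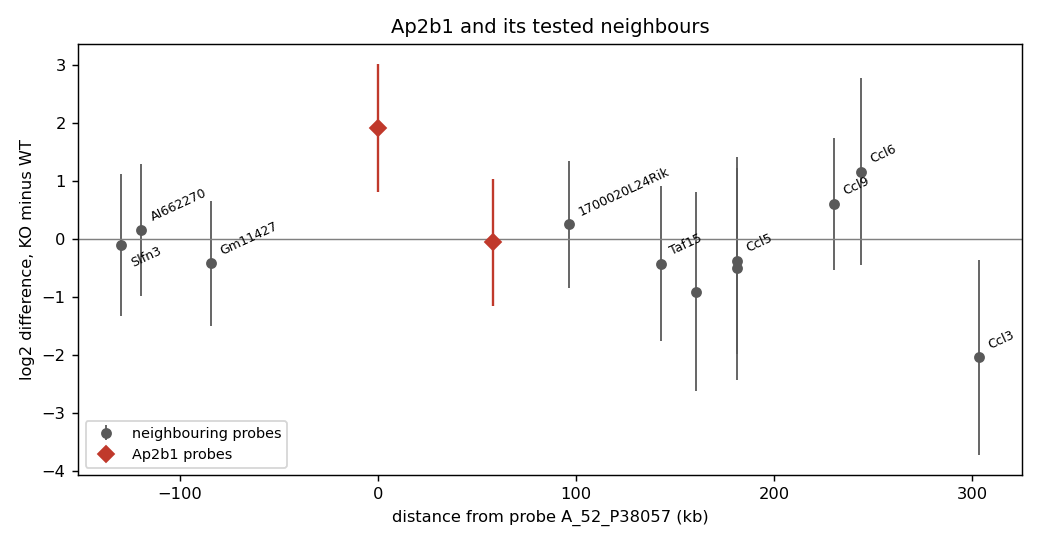
Difference between Meis1-KO and Meis1-WT (y axis, log2 scale, bars for 95% limma intervals) against distance from probe A_52_P38057 in kb (x axis) for the Ap2b1 probes (red) and 11 of the 12 tested neighbouring probes (grey). The Ap2b1 probes stand at 1.91 and -0.06, and the neighbours shown range from -2.05 at Ccl3 to 1.15 at Ccl6.

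The probes whose pattern over the 4 arrays was most like that of A_52_P38057, by the distance between mean-centred levels, were those of Entpd6 (distance 0.38), D430001L07Rik (0.41), Gapdhs (0.56), 9530036O11Rik (0.59) and Phxr4 (0.59). Entpd6, a nucleoside diphosphatase, was at -1.40 and -0.86 in Meis1-KO and at -2.88 and -2.63 in Meis1-WT. Gapdhs, the sperm form of a glycolytic enzyme, was at -2.19 and -1.88 against -3.53 and -3.39. The differences of the 5 probes ran from 1.33 to 1.74. With 4 arrays such likeness is easily met, and 377 other tested probes (1.71%) had a Pearson r above 0.95 with A_52_P38057.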

How the data were processed

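Samples were grouped by the genotype in their titles. The authors deposited Agilent Feature Extraction scanner files (file headers name version 9.5.3.1, the labels 9.1), and the processed intensity of each spot is background-subtracted but not scaled between arrays. A deposited table holds the same intensities (within 0.496%). Gene names and mm9 coordinates are those of the array files. Here, control and outlier-flagged spots were left out, log2 intensities were set against the 75th percentile of their array, spots of a probe were averaged, and the 22007 of 41174 probes that stood well clear of background on both pools of 1 genotype or the other were fitted with limma 3.58.1 (R 4.3.3) on genotype, with Benjamini-Hochberg adjustment over all of them. Probes met the study's criteria where p before adjustment was under 0.01 and the change over 2-fold. The fit was tested on simulated data. The pools are taken as replicates, their number limits the precision, and an exact permutation of 2 against 2 cannot go below p = 0.333. Scan slides pair the replicates (deviations of arrays on 1 slide correlated at 0.266), and the slide was a block in an alternative. Alternatives also covered scaling, background correction, the value table, filters, outlier spots, the variance model, the methods' t-test and leaving out each array.

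Members, lists and rules were chosen with earlier results of these data known. Named are all member probes, Ap1b1, genes of the adaptor and endocytosis lists that met the criteria, the highest and lowest gene of each such list, Rhag and Elane with the marker lists, tested neighbours within 250 kb (1 is not reported here), the 5 probes most like A_52_P38057, Meis1, and receptors shown with their list. Tfrc, Igf2r and Kit were added to that rule after their values were seen. Summed marker levels are log2 of the sum over 1 probe a gene.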

Additional observations from a re-analysis of the deposited data

How the results depend on the processing

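Every alternative used the arrays by which A_52_P38057 was chosen, so its sign there lends no support. The difference at this probe stayed above 0 under every alternative run. It no longer met the criteria without scaling between arrays (1.53), with normexp background correction (0.77), in the methods' t-test (1.91) and in 2 of the 4 fits that left out an array (1.63 to 2.18), so that the count of member probes called higher was 0 there and 1 otherwise. Member probes called lower numbered 0 to 3 with an array left out, the 3 without Meis1-KO 1, a fit that called 7.75% of all probes lower. With the replicate block the difference at A_52_P38057 was 1.91, and the block left the calls of the members as they were. Pathway genes called lower numbered 2 with median scaling, without the filter on dim probes and with the replicate block, 0 with all 4 arrays required above background and in the t-test, and 1 to 6 with an array left out, the 6 in that same fit. Of the neighbours 1 was called with the replicate block, and under median scaling 5 of the 5 probes most like A_52_P38057 were the same.

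Signs of several differences turned, and none of these was called in the main fit or in the fit where its sign turned. Median scaling turned Ap2b1 A_51_P213641 to 0.0225, Ap2m1 A_51_P510949 to 0.0007 and Ap2m1 A_52_P114243 to 0.0193. No scaling turned Ap2s1 A_52_P128095 to -0.0094, Cltc A_51_P311525 and A_52_P67485 to -0.14 and -0.31, Clta to -0.19, Ap4e1 to -0.10 and Bmp2k to -0.25. Normexp turned Cltb to 0.0905 and Clta to -0.0294, and quantile normalization turned Clta to -0.16. With an array left out, Ap2b1 A_51_P213641 ranged from -0.34 to 0.21, Ap2a2 A_52_P668488 from -0.59 to 0.19 and A_51_P312474 from -2.13 to 0.11, Ap2m1 A_52_P627749 from -0.31 to 0.0422, A_51_P510949 from -0.29 to 0.12 and A_52_P422976 from -4.03 to 0.17, Ap2s1 A_51_P419935 from -0.0146 to 1.15, and Cltc A_52_P3835 from -1.05 to 0.32 and A_52_P67485 from -0.20 to 0.34. Likewise Clta ranged from -0.0316 to 0.40, Ap1b1 from -0.37 to 0.11, Ap3d1 from -2.36 to 0.23, Ap3s1 from -0.0623 to 1.12, Ap4e1 from -0.0367 to 0.58, Ap4s1 from -0.0218 to 1.01, Bmp2k from -0.0898 to 0.34 and Egfr from -0.19 to 1.58. The cause was not tested. The signal of A_52_P38057 in the controls, 14.7 and 22.6, limits how well its fold can be known.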
